A study of Saccharomyces cerevisiae with 2 samples.

Results

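The genes described here are 10 genes of sulfate assimilation and methionine synthesis in budding yeast (Saccharomyces cerevisiae), out of 5656 genes named on the array. They were chosen by name, as the genes whose annotated symbol or synonym is MET3, MET14, MET16, MET5, MET10, MET17, MET6, MUP1, SUL1 or SUL2, and each had 1 probe set that matches a single gene. All 10 were found, none of them is also matched by a probe set shared between genes, and their signal was read on both arrays of the series. The cells carried a histone H3 in which lysines 4, 36 and 79 were replaced by arginine. According to the series' design text, wild-type H3 was made in galactose and shut off in glucose, so that the mutant was left as the source of H3. Replicate cultures 1 and 2 were taken 12 h after the move to glucose, at an optical density of 0.5 to 0.7, and each culture's RNA was hybridised to an array of its own. The medium was selective, but the labels state neither its methionine content nor the strain background or any further alleles. Wild-type H3 cells and the other times of the design were not analysed here, so the values describe the mutant alone and carry no contrast with wild type.

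Yeast cells take up sulfate, activate it with ATP, reduce it to sulfite and then to sulfide, and join the sulfide to O-acetylhomoserine to make homocysteine, which is methylated to methionine. Most genes of this route are known to be switched on together when methionine and its product S-adenosylmethionine run low, by the activator Met4 with its DNA-binding partners Cbf1, Met31 and Met32, and to be held low when methionine is plentiful, through the ubiquitin ligase subunit Met30. S-adenosylmethionine is also the methyl donor of the enzymes that methylate histone H3.

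On both arrays all 10 genes gave signal well above the mouse and the opposite-strand control probe sets, and the values of the 2 cultures lay within 1.17-fold of each other for every gene. The median over the 10 genes was 76.3 ± 1.26 (SD, n = 2), where the median over all genes was 41.7 ± 0.383 (SD, n = 2). Of the 10 genes, 7 lay above the median of all genes, which by construction holds 50% of genes. MUP1, MET3, MET17 and MET6 lay in the top quartile of all genes, MET14, MET5 and MET10 in the third, SUL2 and MET16 in the second, and SUL1 in the lowest. A probe set's signal also depends on how well it hybridises, so these places describe the arrays and do not order the genes by RNA amount. In RNA from a whole culture, fewer cells that express a gene and less RNA per cell cannot be told apart.

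The whole arrays had like medians and low control signal, but on the deposited scale more genes read lower than higher on replicate 2, as given below. The median over 9335 probe sets was 28.4 on replicate 1 and 27.5 on replicate 2, and the 9 control probe sets for the opposite strand read at most 3.39 and 4.07. The 4 mouse control probe sets, which match no yeast gene, read at most 0.511 and 1.30. The lowest signal among the 10 genes was 17.8 on replicate 1 and 16.9 on replicate 2, both of them SUL1. The ratio of 3' to 5' signal, a measure of RNA and labelling quality, was higher on replicate 2 for each of the control genes, with ACT1 at 1.29 on replicate 1 and 1.43 on replicate 2, SPT15 at 2.44 and 2.73, and SRB4 at 2.27 and 2.81. Its part in the values below was not tested. Errors are SD over 2 arrays, too few for a close estimate of the spread.

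**Figure D1:**
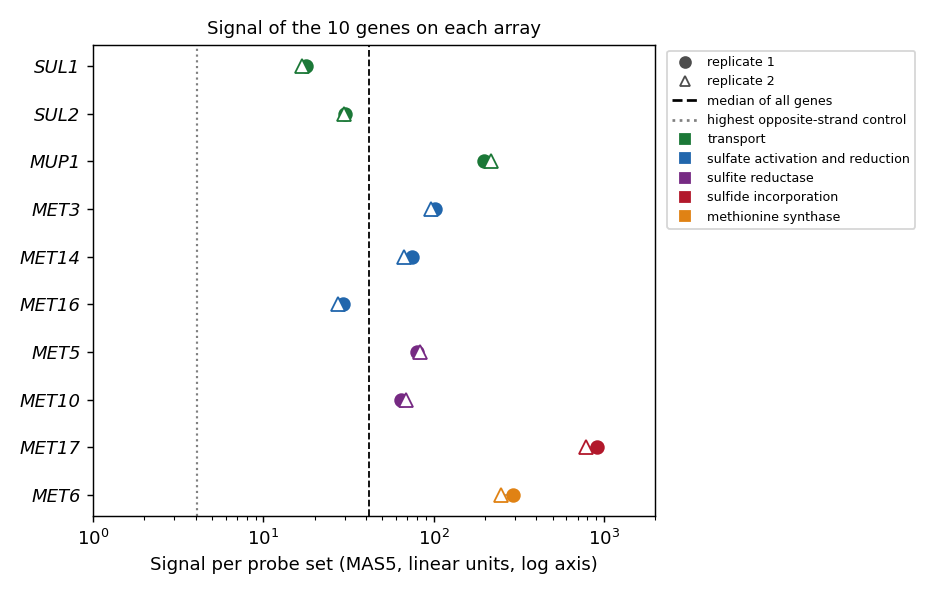
Signal of the 10 genes on each array, with the MAS5 signal on a log axis and a row per gene, coloured by role. Filled circles are replicate 1 and open triangles replicate 2, the dashed line is the median of all genes (41.7, the mean over the arrays) and the dotted line the highest opposite-strand control (4.07). The symbols of a gene overlap or nearly touch, and SUL1, SUL2 and MET16 lie left of the dashed line.

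The transporters were read first. SUL1 (YBR294W), which encodes a high-affinity sulfate permease, gave 17.8 on replicate 1 and 16.9 on replicate 2, or 17.3 ± 0.609 (SD, n = 2). SUL2 (YLR092W), which encodes the other high-affinity sulfate permease, gave 30.3 and 29.7, or 29.99 ± 0.435. Both sulfate permease genes thus read below the median of all genes in both cultures. MUP1 (YGR055W), the gene of the high-affinity methionine permease, gave 198 and 216, or 207 ± 12.5. It read above that median in both cultures, and read higher on replicate 2, with a log2 ratio of 0.12. SUL1 and SUL2 had log2 ratios of -0.07 and -0.03, and that of SUL2 was 0.01 after quantile normalisation or centring of the arrays on their medians.

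The enzymes of sulfate activation and of its first reduction all read slightly lower on replicate 2 under each of the 3 other scalings as well, although MET3 did not relative to its neighbouring probe sets, as given below. MET3 (YJR010W) encodes ATP sulfurylase, which joins sulfate to ATP, and gave 101 and 96.5, or 98.9 ± 3.39. MET14 (YKL001C) encodes the kinase that phosphorylates the product, and gave 74.5 and 66.8, or 70.6 ± 5.44. MET16 (YPR167C) encodes the reductase that releases sulfite from the activated sulfate, and gave 29.3 and 27.6, or 28.5 ± 1.24. MET16 was the only one of these 3 to read below the median of all genes. The log2 ratio of replicate 2 to replicate 1 was -0.07 for MET3, -0.16 for MET14 and -0.09 for MET16.

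The subunits of sulfite reductase, which turns sulfite into sulfide, read slightly higher on replicate 2. MET5 (YJR137C) encodes the beta subunit and gave 80.03 and 82.9, or 81.5 ± 2.01, a log2 ratio of 0.05. MET10 (YFR030W) encodes the alpha subunit and gave 64.5 and 68.6, or 66.6 ± 2.92, a log2 ratio of 0.09. The mean log2 ratio of the sulfite reductase genes was 0.18 above that of the 3 activation genes, a difference that no single factor applied to an array can change. Relative to the neighbouring probe sets described below it was 0.11. The contrast was not among the planned results and sets 2 genes against 3. The log2 ratios of single genes passing the signal filter described below had an SD of 0.20, so 0.18 is within the spread of single genes. With 1 array against 1 array the difference has no replicate check.

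The enzymes that make homocysteine and methionine showed the widest gaps between the cultures among the 10 genes on the deposited scale. MET17 (YLR303W, also called MET15 or MET25) encodes the sulfhydrylase that joins sulfide to O-acetylhomoserine, and gave 906 and 780, or 843 ± 88.9. Loss of this gene is a common marker of laboratory strains, and the labels do not state the genotype of the present strain at MET17. MET6 (YER091C) encodes the cobalamin-independent methionine synthase, and gave 291 and 249, or 270.01 ± 29.5. Both read lower on replicate 2, with log2 ratios of -0.22 for MET17 and -0.22 for MET6. Among the 1414 genes of the top quartile, whose log2 ratios had an SD of 0.15, 12.9% lay at least as far from the quartile's median ratio as MET17 and 11.5% as MET6. For the other 8 genes the matching share of their own quartile ran from 19.9% for MUP1 to 99.6% for SUL2.

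How closely the cultures matched was then set beside the array as a whole. Ratios were counted among the 4242 genes with a mean signal of at least 19.2, the lowest quartile of genes being left out, and 9 of the 10 genes passed this filter while SUL1 did not. At a size of 1.2-fold, 0 of the 9 genes were lower on replicate 2, where 6.91% of all genes passing the filter were, and 0 were higher, where 3.47% were. SUL1 was also within 1.2-fold, at a log2 ratio of -0.07. The median log2 ratio of the 9 genes was -0.07, with a range from -0.22 to 0.12, against a median of -0.023 and an SD of 0.20 over all genes passing the filter. Below that median of all genes lay 6 of the 9. Without the filter, 7 of the 10 genes read lower on replicate 2, where 58.3% of all genes did. This count was 6 of 10 after quantile normalisation or after centring each array on its median, since the ratio of SUL2 then changed sign, and 44.9% and 46.5% of all genes read lower under these scalings. At 1.5-fold and at 2-fold the counts were 0 in both directions too, where 1.2% and 0.471% of genes passing the filter were lower and 0.306% and 0.0471% higher. At these shares a list of 9 genes would hold under 1 call in each direction, so the counts of 0 do not set the genes apart from the array.

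**Figure D2:**
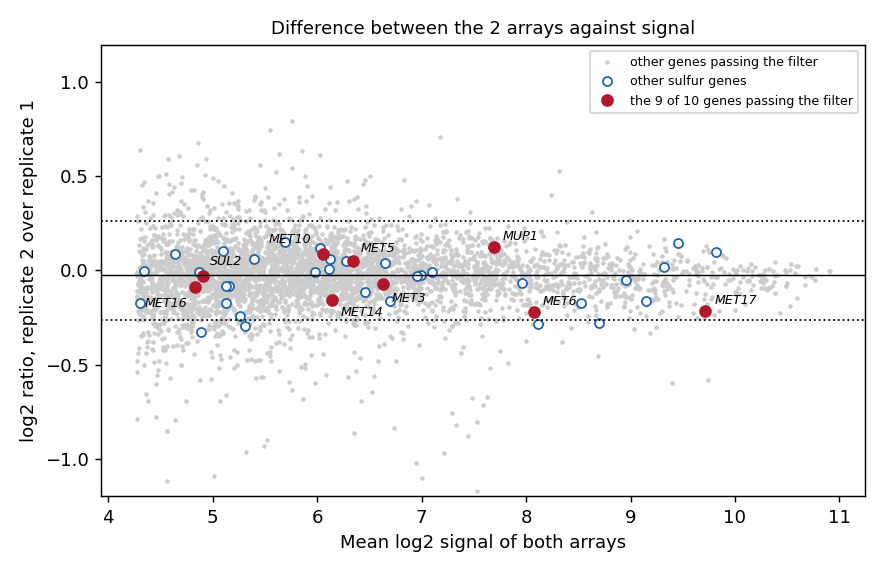
The log2 ratio of replicate 2 to replicate 1 (vertical axis) against the mean log2 signal of both arrays (horizontal axis) for genes passing the signal filter. Filled red points are 9 of the 10 genes, open blue points the other sulfur genes and grey points all others, of which 17 lie beyond the axis; dotted lines mark 1.2-fold and the solid line the median ratio of -0.023. All 9 red points lie between the dotted lines.

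The probe sets next to these genes by number gave ratios of their own. For each of the 10 genes all of the 20 nearest probe sets that passed the filter belong to genes of the same chromosome, so place in the numbering and place on the chromosome cannot be told apart. Around MET17, 19 of the 20 nearest probe sets read lower on replicate 2, with a median log2 ratio of -0.17, and relative to them the ratio of MET17 was -0.05. Around MET14 the neighbours had a median of -0.13, and relative to them MET14 was at -0.02. Around MET3 they had -0.08, which left MET3 at 0.01. The medians of these neighbours thus came close to the ratios of MET17, MET14 and MET3 themselves. MET6 differed from its neighbours by -0.15, MET16 by -0.11, MUP1 by 0.14 and MET10 by 0.10. None of the 10 genes has a probe set within the 2 runs of numbers that hold the 20 genes at least 2-fold lower on replicate 2.

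The genes adjacent on the chromosomes were described from gene order alone. The 10 genes lie on 8 chromosomes, and none is next to another of the 10 or to another gene of the sulfur list below. Of their 20 adjacent genes, 18 had a value and 13 passed the filter, with a median log2 ratio of -0.02. VPS1, a dynamin-like gene beside MET14, gave 113 and 80.9, and SPC1, a signal peptidase subunit gene beside MET3, gave 28.2 and 21.4. These were the only 2 of the 13 at least 1.2-fold lower on replicate 2, and 0 were higher, beside 6.91% and 3.47% of all genes passing the filter. MET14 and MET3 themselves stayed within 1.2-fold.

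The rest of the sulfur network was read from a list of 38 further genes, all of them measured. Their median signal was 64.1 ± 1.73 (SD, n = 2), and 22 of 38 lay above the median of all genes. The filter kept 33 of them, with a median log2 ratio of -0.03 on the deposited scale, close to that of the array. Of these 33, 4 were at least 1.2-fold lower on replicate 2 and 0 were higher, beside the 6.91% and 3.47% of all genes passing the filter. The 4 were MMP1, SAM1, SAM2 and CBF1. After quantile normalisation or centring on the array median, only MMP1 of these stayed past 1.2-fold, so the count depends on the scaling.

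**Figure D3:**
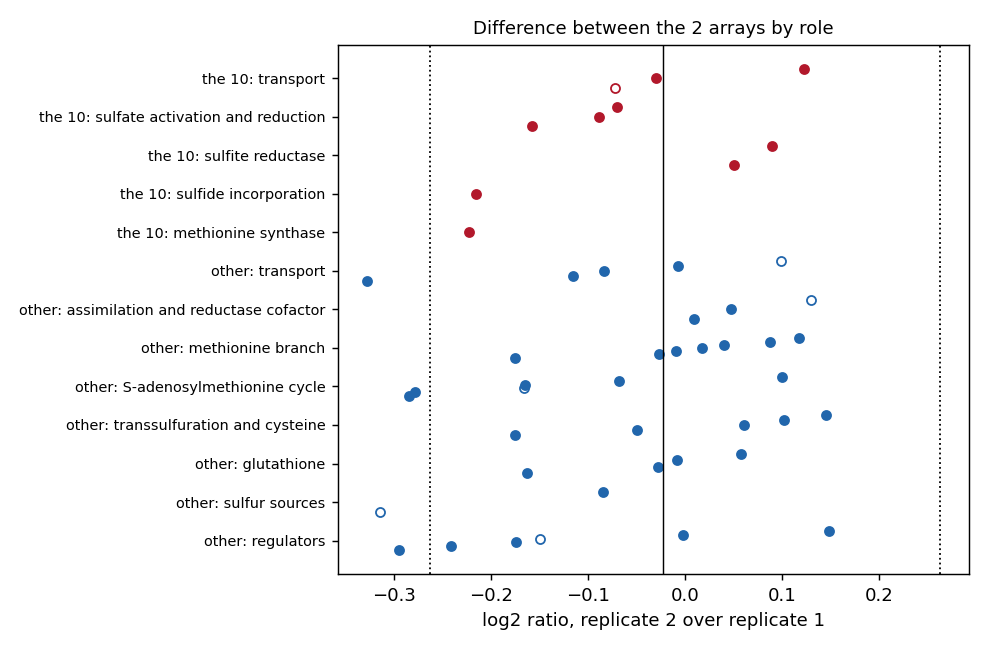
The log2 ratio of replicate 2 to replicate 1 (horizontal axis) for the 10 genes (red) and the 38 other sulfur genes (blue), a row per role. Filled points passed the signal filter and open points did not; dotted lines mark 1.2-fold and the solid line is the median ratio of genes passing the filter (-0.023). On the deposited scale the genes of sulfate activation lie left of 0 and those of sulfite reductase right of it, and the points past the left dotted line are MMP1, SAM1, SAM2, CBF1 and the dim gene BDS1.

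Among further transporters, the low-affinity methionine permease gene MUP3 gave 29.3 and 29.2 on replicates 1 and 2. MMP1, which encodes the S-methylmethionine permease, gave 33.2 and 26.5, a log2 ratio of -0.33. It is next to MHT1, the gene of a methyltransferase that uses S-methylmethionine, which read 12.5 and 11.1 and was under the filter. The S-adenosylmethionine permease gene SAM3 gave 91.4 and 84.3 over 5 probe sets, which disagreed in level, from 14.6 to 174 on replicate 1. They also disagreed in log2 ratio, from -0.51 to 0.08.

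Genes that serve the reductases and the carbon backbone of methionine read close on the 2 arrays. MET1 and MET8, which make the sirohaem cofactor of sulfite reductase, gave 69.03 and 69.5 for MET1 and 14.3 and 15.7 for MET8, the latter under the filter. MET22, whose enzyme removes the nucleotide left by sulfate reduction, gave 76.0 and 78.6. Their log2 ratios were 0.01 for MET1, 0.13 for MET8 and 0.05 for MET22. All 3 were above 0, as were 2361 of all 5656 genes. In the branch from aspartate to homocysteine and folate, 7 of 7 genes were within 1.2-fold, as were 89.6% of all genes passing the filter, with the aspartate kinase gene HOM3 at 138 and 137, HOM2 at 391 and 346, and the homoserine dehydrogenase gene HOM6 at 638 and 645. The probe set of HOM2 lies within the runs of numbers that hold the 2-fold lower genes. Its 20 nearest probe sets nonetheless had a median log2 ratio of 0.01, and relative to them HOM2 was at -0.19.

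The S-adenosylmethionine cycle held 2 of the 4 genes past 1.2-fold. SAM1 and SAM2 encode the near-identical S-adenosylmethionine synthetases. SAM1 gave 305 and 251, a log2 ratio of -0.28, and SAM2 gave 459 and 378, also -0.28. A probe set that matches both genes read 1015 and 972, a log2 ratio of -0.06, so the probe sets of these genes disagree on the size of the gap. SAH1, which encodes the hydrolase of the spent methyl donor, gave 601 and 536, a log2 ratio of -0.16. MET6, the step before SAM1 and SAM2, also read lower on replicate 2, as given above, while the adenosine kinase gene ADO1 gave 871 and 934.

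In transsulfuration, which links homocysteine and cysteine, all 5 genes were within 1.2-fold, near the 89.6% of the array. STR2, the cystathionine gamma-synthase gene, gave 41.1 and 42.9, STR3, the cystathionine beta-lyase gene, 33.2 and 35.6, and CYS3, the cystathionine gamma-lyase gene, 665 and 736. In glutathione synthesis and turnover all 4 were, beside the same 89.6%, with GSH1 at 63.4 and 63.1, GSH2 at 126 and 123, and the gamma-glutamyltranspeptidase gene ECM38 at 110.1 and 98.3. Of the genes for using organic sulfur sources, the sulfonate dioxygenase gene JLP1 gave 36.0 and 33.9. The sulfatase gene BDS1 gave 7.06 and 5.68 over 4 probe sets and was under the filter. The log2 ratios of its probe sets disagreed, from -0.76 to 0.08.

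The regulators of the sulfur genes gave modest signal, with 1 of 6 above the median of all genes by the mean of both arrays. MET4, the gene of the activator, was that gene and gave 49.1 and 54.4, a log2 ratio of 0.15. CBF1, whose product binds DNA at these genes and at centromeres, gave 44.0 and 35.9, a log2 ratio of -0.29. Its value on replicate 1 lay above that array's median of 42.0. MET30, the gene of the ubiquitin ligase subunit that restrains Met4, gave 41.8 and 35.4, a log2 ratio of -0.24, inside 1.2-fold. MET28, a cofactor of Met4, gave 20.3 and 20.2. MET31 gave 20.97 and 18.6, and MET32 gave 17.4 and 15.7, the latter under the filter and within the runs of numbers around the 2-fold lower genes. The 20 probe sets nearest to MET32 had a median log2 ratio of -0.01, and relative to them MET32 was at -0.14. MET4 was thus the only regulator to read higher on replicate 2 on the deposited scale, while MET28 was also above 0 under the 3 other scalings, at log2 ratios of 0.01 to 0.08. The gap between MET4 and CBF1 has no replicate check.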

How the data were processed

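The authors deposited a linear intensity per probe set, and the submitters' processing notes name MAS5 as the tool. No label states its version or settings, and no detection calls entered the work. Per the labels' protocols about 20 ug of total RNA, extracted with hot acid phenol, gave biotin-labelled cRNA. Of 9335 probe sets, 60 are controls, 6504 had 1 gene in the platform annotation, 328 matched several genes, and the annotation leaves 2443 unlisted. The 328 entered no gene's value, and 1 of them, shared by SAM1 and SAM2, is given above on its own. Symbols were updated by gene identifier to RefSeq's R64 table. A gene's value was the mean log2 signal of its probe sets, with values of 0 left out, and ratios were counted above the 25th percentile of mean log2 signal. With 1 group of 2 arrays no test was made. All 10 genes were named, and of the 38 others every regulator, the first 3 listed per role and those past 1.2-fold; ADO1 and MHT1, and the neighbours VPS1 and SPC1, were picked once their values had been seen. The genes and lists were chosen with earlier results of these data known. The counting step was tested on simulated data with normal noise and planted decreases of 1.5-fold and 2-fold. Changes of 1.2-fold and increases were not planted, so the simulation does not cover them. Its noise was centred on 0 and had no link to probe set number, unlike the ratios here. It therefore gives no rate of false calls for these arrays. Alternatives were other scalings, probe set choices, filters, a pseudocount of 10 and other folds. Python 3.11.15, numpy 2.4.6, pandas 2.3.3 and matplotlib 3.10.9 were used.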

Additional observations from a re-analysis of the deposited data

How the results depend on the processing

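For the 10 genes, the median signal moved by less than its SD, and the 7 above the array median and the counts of 0 past 1.2-fold were the same under every alternative run. Several of these alternatives could not have changed them. Each gene has 1 plain probe set outside the runs of low numbers, so the probe set choices left its signal as it was. Leaving out 1 of 2 arrays always moves their mean by less than the SD. A single factor per array cannot move a gene across the median, and larger folds cannot raise a count of 0. Their median log2 ratio kept its sign but ran from -0.07 as reported to -0.03 after quantile normalisation or centring and -0.01 relative to the nearest probe set numbers. These moves are within 0.20, the SD over single genes, which is a wide bound for a median. Without replicate 1 or 2 the median signal was 75.4 and 77.2, and for the 38 other genes 65.4 and 62.9. For those 38, the median signal was 57.0 with plain probe sets only. Their count lower by 1.2-fold, 4 as reported, was 1 after quantile normalisation (MMP1), 1 after centring on the median (MMP1), 2 with a pseudocount of 10 (SAM1 and SAM2), and 0 at 1.5-fold and at 2-fold. Relative to the 20 nearest probe set numbers, an alternative chosen after seeing the data, it was 1 (CBF1). Their median ratio turned from -0.03 to 0.01 after quantile normalisation and to 0.02 after centring, as did the median of all genes. The planned search of promoters for motifs was not run, as no promoter sequence was used here. No paired analysis was possible because the 2 arrays form a single group. The number of arrays limits the precision.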
